A study of Homo sapiens with 15 samples.

Results

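The insulin-like growth factor (IGF) axis was followed here through 10 genes, picked by symbol from the 43388 genes counted in each library. They are 1 ligand (IGF2), 2 receptors (IGF1R and IGF2R) and 7 binding proteins (IGFBP1 to IGFBP7). IGF ligands signal through the tyrosine kinase receptor IGF1R toward growth and survival, while IGF2R, the cation-independent mannose 6-phosphate receptor, takes up IGF2 for degradation and carries lysosomal enzymes. The high-affinity binding proteins hold the ligands outside the cell and can limit or prolong their action, and proteases such as pappalysin release the ligand again. In the lung, these genes are known from growth of the airways and alveoli, from injury repair and from lung cancer.

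The cells were A549, a human epithelial line from a lung adenocarcinoma, profiled by RNA-seq. Per the labels, they received 1e-05 mM all-trans retinoic acid (ATRA, the active form of vitamin A) or its vehicle, ethanol, for 24 hours. They then spent 72 hours in hyperoxia, at 95% oxygen, or in normoxia, at 21%. The labelled libraries numbered 14, of which each exposure had 2 with vehicle, 3 with ATRA and 2 whose labels name no vehicle, and another library with conflicting labels was left out of the comparisons. Nothing says that replicates came from separate cultures, so p-values measure only the spread between these libraries, which may be technical.

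Counts on genes ranged from 2642377 to 5605072 per labelled library (median 4038111), and 3 counts correspond to between 0.535 and 1.14 counts scaled to a common library size (CPM), which covers counting error only. Hyperoxia without vehicle replicate 1 stood apart from the other libraries. It had counts on 12657 genes, against 16465 to 20108 in the other labelled libraries, and 1350 of its genes were at 0 although every other library had at least 3 counts on them. The results on the libraries without vehicle are therefore given with and without it. Keratin and epithelial markers of the line were all present (7 of 7 genes, summed 3318 to 11886 CPM, with KRT8 reaching the highest count). However, EPCAM had 0 counts in some hyperoxia libraries, and MUC1 had 0 counts in hyperoxia without vehicle replicate 1. Alveolar type II markers summed to at most 4.33 CPM, with SFTPA1 and SFTPA2 at 0. Fibroblast markers reached 13.2 CPM with DCN at 0, endothelial markers 6.26 CPM with VWF at 0, and adipocyte markers 1.53 CPM with ADIPOQ and LEP at 0. Of the leukocyte markers, CD3E and MS4A1 were at 0, and CD68 had 17.4 to 32.8 CPM in normoxia and 60.4 to 103 CPM in hyperoxia. With vehicle, CD68 rose by 1.63 on the log2 scale (adjusted p = 2.25e-05 from edgeR).

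Some of these markers moved in the same comparisons. In hyperoxia with vehicle, KRT8 fell by 1.73, KRT18 by 2.13, KRT19 by 1.58 and CDH1 by 2.17 on the log2 scale, all called by edgeR, while KRT7 (-0.10), EPCAM and MUC1 were not called. ATRA in hyperoxia raised KRT7 by 0.69, KRT18 by 0.97, KRT19 by 0.99 and CDH1 by 1.28, and KRT8 from a mean of 1171 to 2352 CPM, all called by edgeR. The fibroblast marker COL1A1 had 35 and 35 counts in normoxia and 1 and 8 counts in hyperoxia with vehicle (adjusted p = 0.0202 from edgeR). The endothelial marker CDH5 had 20, 6 and 10 counts in normoxia with ATRA and at most 1 count in any other library. The part of these marker shifts in the results below was not tested.

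All 10 genes passed the filter on low counts. The plot of their counts in each library includes genes that followed oxygen (IGF2R), genes that followed ATRA (IGF2), genes whose level differed with both (IGFBP3, IGFBP5) and genes that were not called in any comparison (such as IGF1R and IGFBP2).

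**Figure D1:**
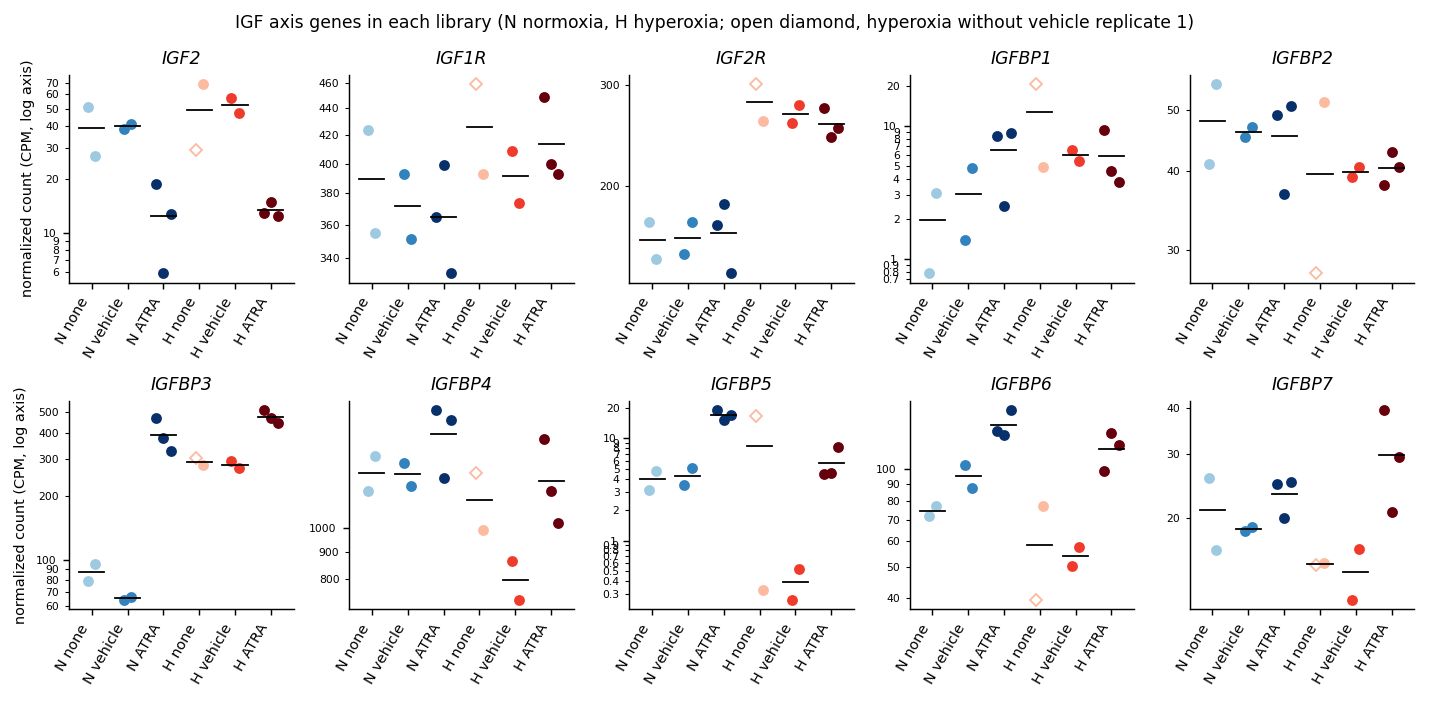
Normalized counts (CPM, log axis) of the 10 IGF axis genes in each of 14 libraries, by group; points are libraries, bars are group means, and the open diamond is hyperoxia without vehicle replicate 1. IGF2R lies between 243 and 301 CPM in the 7 hyperoxia libraries and between 141 and 186 CPM in the 7 normoxia libraries.

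Levels of different genes were compared per kilobase of exons. IGFBP4 was the most abundant, with a median of 556 CPM per kb (332 to 760 over 14 libraries), and its range did not overlap that of any other gene. IGFBP6 (median 69.2 CPM per kb) and IGFBP3 (65.3 CPM per kb) came next and overlapped widely, since IGFBP3 ran from 14.1 to 112 CPM per kb. IGF1R followed with 28.2 CPM per kb (23.8 to 32.9), a range that overlapped both. IGFBP7 (10.0 CPM per kb), IGF2R (9.49 CPM per kb) and IGFBP2 (8.84 CPM per kb) were not separated by more than their spread. IGF2 (3.92 CPM per kb) and IGFBP1 (2.95 CPM per kb) lay lower, with overlapping ranges. IGFBP5 had the lowest median, 0.726 CPM per kb, but its range (0.041 to 2.90) overlapped those of IGF2 and IGFBP1, and it lay above IGF2 in each of the 3 normoxia ATRA libraries. The other ligand gene, IGF1, had 8 counts in all 14 libraries together, and INS had 0.

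IGF2, a ligand of IGF1R, lies on chromosome 11 of hg38 from 2129117 to 2149566 on the minus strand. It shares its exons and its reads with the read-through gene INS-IGF2, which held 96.7% as many counts, and the 2 genes should be read as 1 signal. In normoxia, IGF2 had 38.6 and 41.0 CPM in the vehicle libraries and 18.8, 5.93 and 12.8 CPM in the ATRA libraries. In hyperoxia, it had 57.5 and 47.0 CPM with vehicle and 12.5 to 14.9 CPM in the 3 ATRA libraries. Each ATRA library lay below each vehicle library at the same oxygen exposure. With ATRA, IGF2 fell by 1.65 on the log2 scale in normoxia (3.15-fold lower, standard error 0.31), with a Benjamini-Hochberg adjusted p of 0.00497 by the quasi-likelihood test of edgeR. In hyperoxia, it fell by 1.96 (3.89-fold lower, standard error 0.30, adjusted p = 5.36e-04 from edgeR). The difference between these ATRA effects was -0.31 (95% interval -1.21 to 0.60, adjusted p = 0.935 from edgeR). Without normoxia vehicle replicate 2, the normoxia value was -1.61 and missed the threshold of 0.05 (adjusted p = 0.0943 from edgeR), as did -1.66 in the fit of 14 libraries (adjusted p = 0.130 from edgeR). Here and below, bulk RNA cannot tell fewer cells of a kind from less RNA per cell.

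Libraries without vehicle offer other controls for the same ATRA libraries. IGF2 had 51.3 and 26.9 CPM there in normoxia and 29.2 and 68.7 CPM in hyperoxia, a wider spread than with vehicle. Against them, the log2 fold change of IGF2 with ATRA was -1.64 in normoxia (adjusted p = 0.141 from edgeR) and -1.86 in hyperoxia (adjusted p = 0.0675 from edgeR). With replicate 1 of hyperoxia without vehicle left out of the fit, both were called, at -1.64 (adjusted p = 0.00490 from edgeR) and -2.36 (adjusted p = 0.00157 from edgeR). Over all alternatives, the adjusted p ranged from 1.52e-06 to 0.141 in normoxia and from 4.95e-10 to 0.0675 in hyperoxia.

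Oxygen alone was not associated with a called change of IGF2. The log2 fold change in hyperoxia was 0.39 with vehicle (95% interval -0.27 to 1.04), 0.08 with ATRA (-0.54 to 0.70) and 0.31 without vehicle (-0.63 to 1.25). With replicate 1 left out, the last was 0.80 (standard error 0.38, adjusted p = 0.214 from edgeR). Leaving out each library in turn moved the value without vehicle between -0.48 and 0.82, so its sign was not stable. Each interval printed includes 0, and none excludes a rise of 0.70.

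IGF1R, the signalling receptor, lies on chromosome 15 from 98648539 to 98964530. It varied least of the 10 genes, between 331 and 459 CPM over 14 libraries, a ratio of 1.38. Its log2 fold change was 0.07 in hyperoxia with vehicle (95% interval -0.20 to 0.35), 0.18 with ATRA (-0.04 to 0.41) and 0.13 without vehicle (-0.17 to 0.43), or 0.01 with replicate 1 left out (standard error 0.17). With ATRA it was -0.03 in normoxia (-0.28 to 0.23) and 0.08 in hyperoxia (-0.17 to 0.33). None of these was called by edgeR. The antisense gene IRAIN held 8.54% as many counts.

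IGF2R, the receptor that clears IGF2, lies on chromosome 6 from 159969082 to 160111504. In normoxia, it had 173 and 149 CPM without vehicle, 152 and 173 CPM with vehicle, and 171, 186 and 141 CPM with ATRA. In hyperoxia, it had 301 and 260 CPM without vehicle, 257 and 277 CPM with vehicle, and 273, 243 and 252 CPM with ATRA. Every hyperoxia library lay above every normoxia library. IGF2R rose by 0.71 on the log2 scale with vehicle (1.64-fold, standard error 0.15, adjusted p = 0.00133 from edgeR) and by 0.63 with ATRA (1.55-fold, standard error 0.12, adjusted p = 5.41e-04 from edgeR). Without vehicle, it rose by 0.80 (1.74-fold, standard error 0.15, adjusted p = 0.00215 from edgeR over 15339 genes), and by 0.69 with replicate 1 left out (adjusted p = 0.0143 from edgeR). These 3 oxygen comparisons share no library. When only the libraries without vehicle were fitted, IGF2R missed the threshold (0.80, adjusted p = 0.145 from edgeR). ATRA was not associated with a called change of IGF2R, with a log2 fold change of 0.03 in normoxia (95% interval -0.26 to 0.31) and -0.06 in hyperoxia (-0.33 to 0.21).

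IGFBP3 carries most circulating IGF in people and has actions of its own on cell growth and death. It lies on chromosome 7 from 45912245 to 45921272 on the minus strand. In normoxia, it had 78.8 and 95.5 CPM without vehicle, 64.6 and 66.3 CPM with vehicle, and 471, 378 and 327 CPM with ATRA. In hyperoxia, it had 304 and 280 CPM without vehicle, 293 and 272 CPM with vehicle, and 511, 468 and 446 CPM with ATRA. The 4 normoxia libraries without ATRA were the lowest, and the ATRA libraries were the highest at either exposure.

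In vehicle, IGFBP3 rose by 2.11 in hyperoxia (4.30-fold, standard error 0.16, adjusted p = 8.28e-09 from edgeR). Without vehicle, it rose by 1.75 (3.36-fold, standard error 0.17, adjusted p = 4.63e-06 from edgeR), and by 1.68 with replicate 1 left out (adjusted p = 1.19e-06 from edgeR). With ATRA, the oxygen difference was 0.28 (1.21-fold, 95% interval 0.03 to 0.53, adjusted p = 0.106 from edgeR). It was 0.43 (adjusted p = 0.0162 from edgeR) without normoxia ATRA replicate 1 and 0.29 (adjusted p = 0.0434 from edgeR) with library sets as a block. Over the fits with each library left out in turn, this difference ran from 0.14 to 0.43. ATRA raised IGFBP3 by 2.58 in normoxia (5.98-fold, standard error 0.16, adjusted p = 1.62e-09 from edgeR) and by 0.75 in hyperoxia (1.68-fold, standard error 0.14, adjusted p = 0.00308 from edgeR). The ATRA effect in hyperoxia was smaller than that in normoxia by a log2 difference of -1.83 (standard error 0.20; adjusted p = 1.30e-04 by edgeR). The same value says that the oxygen effect was smaller with ATRA. It lay between -1.96 and -1.67 when each library was left out in turn. The hyperoxia ATRA call ended without hyperoxia vehicle replicate 1 (0.79, adjusted p = 0.0556 from edgeR) or replicate 2 (0.69, adjusted p = 0.109 from edgeR). Against hyperoxia without vehicle, it was 0.70 (adjusted p = 0.0490 from edgeR), and 0.76 without replicate 1 of those controls (adjusted p = 0.134 from edgeR). Fits with treatment as a covariate give a single oxygen value over all treatments, 1.20 for IGFBP3 (adjusted p = 3.99e-04 from edgeR), between those of vehicle and ATRA.

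**Figure D2:**
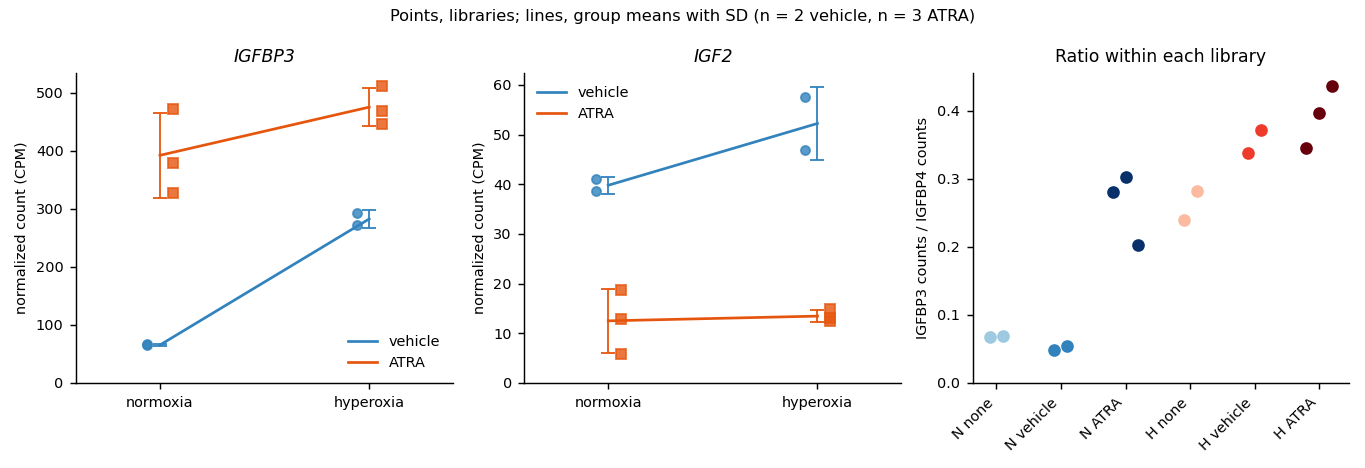
Normalized counts (CPM) of IGFBP3 and IGF2 by oxygen exposure with vehicle and ATRA (points, libraries; lines, means with SD), and the ratio of IGFBP3 to IGFBP4 counts within each library by group (N normoxia, H hyperoxia). The IGFBP3 lines approach each other in hyperoxia, at 282 CPM with vehicle and 475 CPM with ATRA, while the IGF2 lines stay apart.

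IGFBP4, which inhibits IGF action until it is cleaved, lies on chromosome 17 from 40443450 to 40457725. With vehicle, it had 1328 and 1204 CPM in normoxia and 865 and 731 CPM in hyperoxia. With ATRA, it had 1676, 1248 and 1608 CPM in normoxia and 1479, 1179 and 1023 CPM in hyperoxia. The hyperoxia vehicle libraries were the lowest of all 14, and the libraries without vehicle had 1178 and 1373 CPM in normoxia and 1273 and 993 CPM in hyperoxia. IGFBP4 fell by 0.67 in hyperoxia with vehicle (1.59-fold lower, standard error 0.16, adjusted p = 0.00648 from edgeR) and was 0.62 higher with ATRA than with vehicle in hyperoxia (1.54-fold, standard error 0.15, adjusted p = 0.0316 from edgeR). These comparisons use the same hyperoxia vehicle libraries. With ATRA, the oxygen difference was -0.30 (95% interval -0.58 to -0.02, adjusted p = 0.116 from edgeR), and it was called without hyperoxia ATRA replicate 1 (-0.46, adjusted p = 0.0171 from edgeR), without normoxia ATRA replicate 2 (-0.42, adjusted p = 0.0294 from edgeR) or without a filter (adjusted p = 0.0354 from edgeR). It was -0.17 without vehicle (adjusted p = 0.566 from edgeR) and -0.37 with replicate 1 left out (adjusted p = 0.318 from edgeR). The vehicle oxygen call ended without normoxia vehicle replicate 1 (-0.62, adjusted p = 0.0556 from edgeR) or hyperoxia vehicle replicate 2 (-0.58, adjusted p = 0.0893 from edgeR). The ATRA call ended without hyperoxia vehicle replicate 1 (0.74, adjusted p = 0.123 from edgeR) or replicate 2 (0.50, adjusted p = 0.427 from edgeR). It also ended without hyperoxia ATRA replicate 1 (0.46, adjusted p = 0.141 from edgeR) or replicate 2 (0.63, adjusted p = 0.0764 from edgeR). Against hyperoxia without vehicle, the ATRA difference was 0.11 (adjusted p = 0.729 from edgeR), and 0.30 without replicate 1 of those controls (adjusted p = 0.898 from edgeR). With library sets as a block it was 0.50 (adjusted p = 0.0727 from edgeR). With all 14 libraries fitted, the difference from vehicle was 0.62 (adjusted p = 0.161 from edgeR). A covariate for treatment gave an oxygen value of -0.37 (adjusted p = 0.0134 from edgeR).

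IGFBP5, which binds both IGF and the matrix, lies on chromosome 2 from 216672105 to 216695549 on the minus strand. Its counts were few. With vehicle, there were 10 and 29 counts in normoxia and 1 and 3 counts in hyperoxia. With ATRA, there were 72, 48 and 65 counts in normoxia and 25, 12 and 35 counts in hyperoxia. Without vehicle, there were 16 and 20 counts in normoxia, and 83 and 1 counts in hyperoxia, so the replicates of the last group disagreed and the high value came from the library that stood apart. Hyperoxia libraries without ATRA thus had 1 to 3 counts in 3 of 4 cases.

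Summed over the vehicle libraries and scaled by library size, IGFBP5 was 10.8-fold lower in hyperoxia (4 against 39 counts, exact 95% counting interval 3.90 to 41.6). ATRA raised it 13.7-fold over vehicle in hyperoxia (72 against 4 counts, interval 5.13 to 51.7). Both were called by edgeR (adjusted p = 0.00244 and 0.00312), and both rest on the same 4 counts. On the log2 scale, the oxygen value was -3.3 both in the main fit and with all 14 libraries fitted, where its call was lost (adjusted p = 0.100 from edgeR). The call was also lost with treatment as a covariate (-1.12, adjusted p = 0.217 from edgeR). The covariate fit without the library that stood apart gave -2.08 (adjusted p = 4.84e-05 from edgeR). The log2 value for ATRA in hyperoxia was 3.7 in the main fit. Its call was lost without hyperoxia vehicle replicate 1 (3.37) or replicate 2 (4.29), each fit leaving 1 library in that group. The sign turned against hyperoxia without vehicle (-0.57, adjusted p = 0.722 from edgeR), where leaving out replicate 1 gave 4.03. Fitting only the groups compared (3.72, adjusted p = 0.0933 from edgeR) or all 14 libraries (3.71, adjusted p = 0.227 from edgeR) ended the call too. Against all controls together, the value was 0.35 (adjusted p = 0.908 from edgeR). With ATRA, where counts were higher, IGFBP5 fell by 1.54 in hyperoxia (2.90-fold lower, standard error 0.42, adjusted p = 0.0105 from edgeR). It fell by 1.45 without normoxia ATRA replicate 1 (adjusted p = 0.0625 from edgeR), while the fit of all 14 libraries gave -1.54 (adjusted p = 0.231 from edgeR). In normoxia, the log2 fold change with ATRA was 1.94 (standard error 0.49) and missed the threshold with an adjusted p of 0.0591 from edgeR (0.0112 from DESeq2, and 0.00950 from edgeR on only the groups compared). Against normoxia without vehicle, it was 2.09 (adjusted p = 0.877 from edgeR), and with hyperoxia without vehicle replicate 1 left out of the fit, the same 2.09 was called (adjusted p = 0.0408 from edgeR). Each ATRA library lay above each vehicle library. Without vehicle, the oxygen difference was 1.13 (adjusted p = 0.442 from edgeR) with replicate 1, and without it the sign turned to -3.48 (adjusted p = 0.0457 from edgeR), with 1 count against 36. With replicate 2 left out instead, it was 2.01 (adjusted p = 0.00579 from edgeR), and the part of replicate 1 in these values was not tested.

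IGFBP6, which prefers IGF2 over IGF1, lies on chromosome 12 from 53097667 to 53102340. With vehicle, it had 103 and 87.6 CPM in normoxia and 50.4 and 57.6 CPM in hyperoxia. With ATRA, it had 131, 128 and 152 CPM in normoxia and 98.8, 129 and 119 CPM in hyperoxia. Without vehicle, it had 72.0 and 77.2 CPM in normoxia and 39.7 and 76.9 CPM in hyperoxia, the lower value again from replicate 1. IGFBP6 fell by 0.81 in hyperoxia with vehicle (1.75-fold lower, standard error 0.17, adjusted p = 0.00192 from edgeR) and rose by 1.09 with ATRA in hyperoxia (2.13-fold, standard error 0.16, adjusted p = 3.95e-04 from edgeR). With ATRA in normoxia, its log2 fold change was 0.53 (1.44-fold, 95% interval 0.21 to 0.85, adjusted p = 0.122 from edgeR). Against normoxia without vehicle, it was 0.88 (adjusted p = 0.130 from edgeR), and 0.87 with hyperoxia without vehicle replicate 1 left out of the fit (adjusted p = 0.00290 from edgeR). Without vehicle, the oxygen difference was -0.37 (adjusted p = 0.315 from edgeR). It was 0.04 with replicate 1 left out and -0.96 with replicate 2 left out instead, each fit leaving 1 hyperoxia library without vehicle. Against hyperoxia without vehicle, the ATRA value missed the threshold (1.00, adjusted p = 0.0675 from edgeR), and it was 0.58 without replicate 1 of those controls (adjusted p = 0.579 from edgeR). The oxygen value with treatment as a covariate was -0.44 (adjusted p = 0.0170 from edgeR).

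The remaining binding proteins were not called in these comparisons by edgeR with all libraries and the filter. IGFBP2, on chromosome 2 from 216632828 to 216664436, ranged from 27.6 to 54.9 CPM, and its log2 fold change was -0.21 in hyperoxia with vehicle (95% interval -0.65 to 0.23) and -0.02 with ATRA in normoxia (-0.42 to 0.39). IGFBP7, on chromosome 4 from 57030773 to 57110385, had 11.9 and 16.4 CPM with vehicle and 39.5, 20.7 and 29.3 CPM with ATRA in hyperoxia. That is a log2 fold change of 1.08 (2.11-fold, standard error 0.29, adjusted p = 0.0576 from edgeR and 0.0289 from DESeq2). It was called by edgeR without a filter (adjusted p = 0.0303), without hyperoxia ATRA replicate 2 (1.25, adjusted p = 0.0238), without normoxia ATRA replicate 2 (adjusted p = 0.0468) and against all controls without the library that stood apart (adjusted p = 0.0182). The ends of IGFBP7 and POLR2B overlap on opposite strands, and POLR2B held 477% as many counts, so IGFBP7 is uncertain. IGFBP7-AS1, on the opposite strand too, held 27.3% as many counts, and had 10 and 23 counts with vehicle and 84, 13 and 20 counts with ATRA in hyperoxia. The highest count of IGFBP7-AS1 came from the library with the highest IGFBP7, hyperoxia ATRA replicate 1, and its part in the IGFBP7 value was not tested. POLR2B had 92.6 ± 0.874 CPM (SD, n = 2) with vehicle and 98.9 ± 12.7 CPM (SD, n = 3) with ATRA in hyperoxia. IGFBP1, on chromosome 7 from 45888488 to 45893660, had between 4 and 103 counts. Hyperoxia without vehicle replicate 1 held the highest, 20.6 CPM, against 0.780 to 9.37 CPM in the other libraries. Its oxygen difference without vehicle was 2.73 (adjusted p = 0.0699 from edgeR and 0.0245 from DESeq2; 0.0361 from edgeR without a filter), and 1.34 with that replicate left out (adjusted p = 0.451 from edgeR). With replicate 2 left out instead, edgeR called IGFBP1 (3.37, adjusted p = 0.00163) and IGFBP2 (-0.85, adjusted p = 0.0166).

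**Figure D3:**
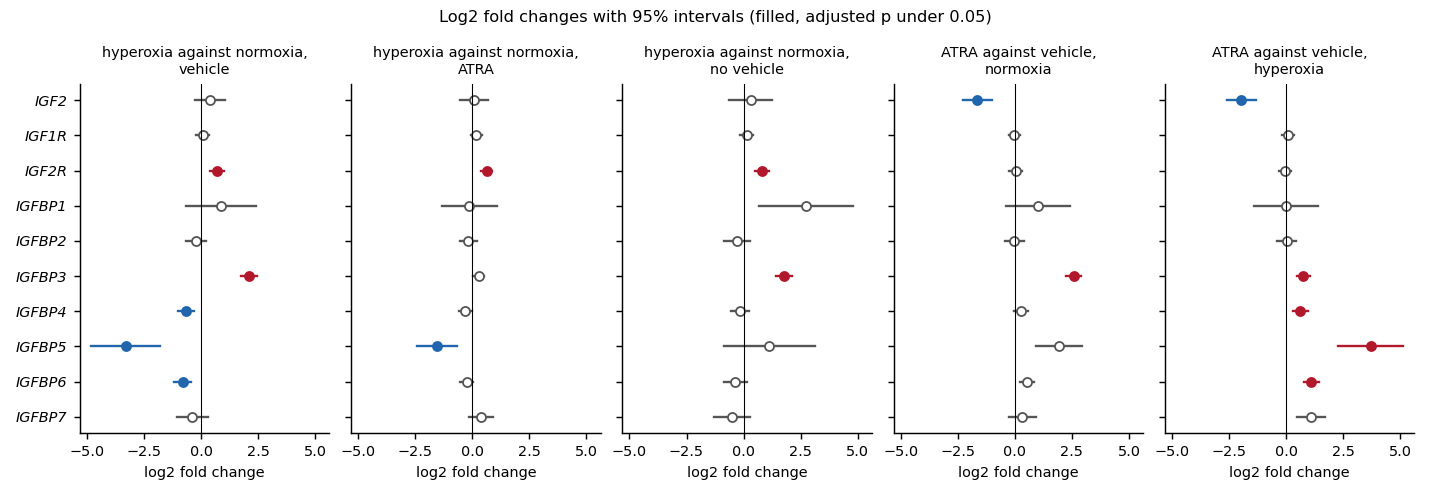
Log2 fold changes of the 10 genes in 5 comparisons, with 95% intervals from edgeR; filled points have an adjusted p under 0.05 (red higher, blue lower). IGF2R is to the right of 0 in the 3 oxygen comparisons, and IGF2 is to the left of 0 in both ATRA comparisons.

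The number of members called was set against all genes tested by edgeR. In hyperoxia against normoxia with vehicle, 2 of 10 were higher, against 8.68% of all genes, and 3 lower, against 8.81%. With ATRA, 1 of 10 was higher (11.4% of all genes) and 1 lower (11.3%), a share near the background. Without vehicle, 2 were higher (7.57% of all genes) and 0 lower (7.58%), and with replicate 1 left out, 2 were higher and 1 was lower (1733 of 16503 genes called in either direction). In ATRA against vehicle, 1 was higher (0.816% of all genes) and 1 lower (0.435%) in normoxia, and 4 were higher (1.52%) and 1 lower (0.695%) in hyperoxia. For the difference between the ATRA effects, 0 of 10 were higher (0.100% of all genes) and 1 was lower (0.0401%). The median log2 fold change of the members was -0.07 in hyperoxia with vehicle (0.01 over all genes) and 0.35 with ATRA in hyperoxia (0.00 over all genes). It was -0.03 in hyperoxia with ATRA (0.01 over all genes), 0.22 without vehicle (-0.10 over all genes) and 0.29 with ATRA in normoxia (0.00 over all genes).

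Vehicle was also set against no vehicle. In normoxia, edgeR called 0 genes in either direction, a share of 0% of 15339 genes, with 133 genes at an unadjusted p under 0.05 and 1 called by DESeq2. These 133 are a smaller share than the 0.05 that would arise if no gene differed. The test was thus conservative here, and it does not show that the libraries were alike. Of the members, 1 had an unadjusted p under 0.05, and 0 were called by edgeR or DESeq2. In hyperoxia, 1 gene was higher with vehicle (0.00652% of all genes) and 0 lower (0%), and 0 of 10 members were called by either tool, with 2 at an unadjusted p under 0.05. IGFBP5 differed most there, by -4.29 (adjusted p = 0.554 from edgeR, and 0.0165 from edgeR without a filter). With replicate 1 of hyperoxia without vehicle left out, it differed by 0.34, and with replicate 2 left out instead, by -5.18. IGFBP4 differed by -0.51 (95% interval -0.90 to -0.11, adjusted p = 0.554 from edgeR). It differed by -0.31 with replicate 1 left out and by -0.65 with replicate 2 left out instead. Each of these fits leaves 1 library in the group without vehicle. IGFBP3 differed by -0.05 in hyperoxia (95% interval -0.38 to 0.28). In normoxia, where no member was called, IGFBP3 differed by -0.41 (-0.54 to -0.27 with each library left out in turn). It had 64.6 and 66.3 CPM there with vehicle, and 78.8 and 95.5 CPM without. Those normoxia vehicle libraries enter its oxygen value with vehicle, its ATRA value in normoxia and the difference of its ATRA effects.

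The makeup of the binding protein transcripts was described per length, as each gene's share of the summed CPM per kb of the 7 genes. IGFBP4 held 84.3% ± 0.213 (SD, n = 2) with vehicle in normoxia and 74.8% ± 2.54 (SD, n = 2) in hyperoxia. With ATRA, it held 75.9% ± 1.75 (SD, n = 3) in normoxia and 71.5% ± 3.47 (SD, n = 3) in hyperoxia. The share of IGFBP3 was 2.11% ± 0.179 (SD, n = 2) and 12.8% ± 0.426 (SD, n = 2) with vehicle, and 9.59% ± 1.76 (SD, n = 3) and 13.5% ± 0.93 (SD, n = 3) with ATRA, in normoxia and hyperoxia. The sum itself was lowest in hyperoxia with vehicle, at 512 and 455 CPM per kb. It was 891, 756 and 677 CPM per kb with ATRA in hyperoxia, and 713 and 649 CPM per kb with vehicle in normoxia. The ratio of IGFBP3 to IGFBP4 counts within a library does not depend on scaling. It was between 0.0487 and 0.0695 in the 4 normoxia libraries without ATRA and between 0.203 and 0.436 in the other 10.

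**Figure D4:**
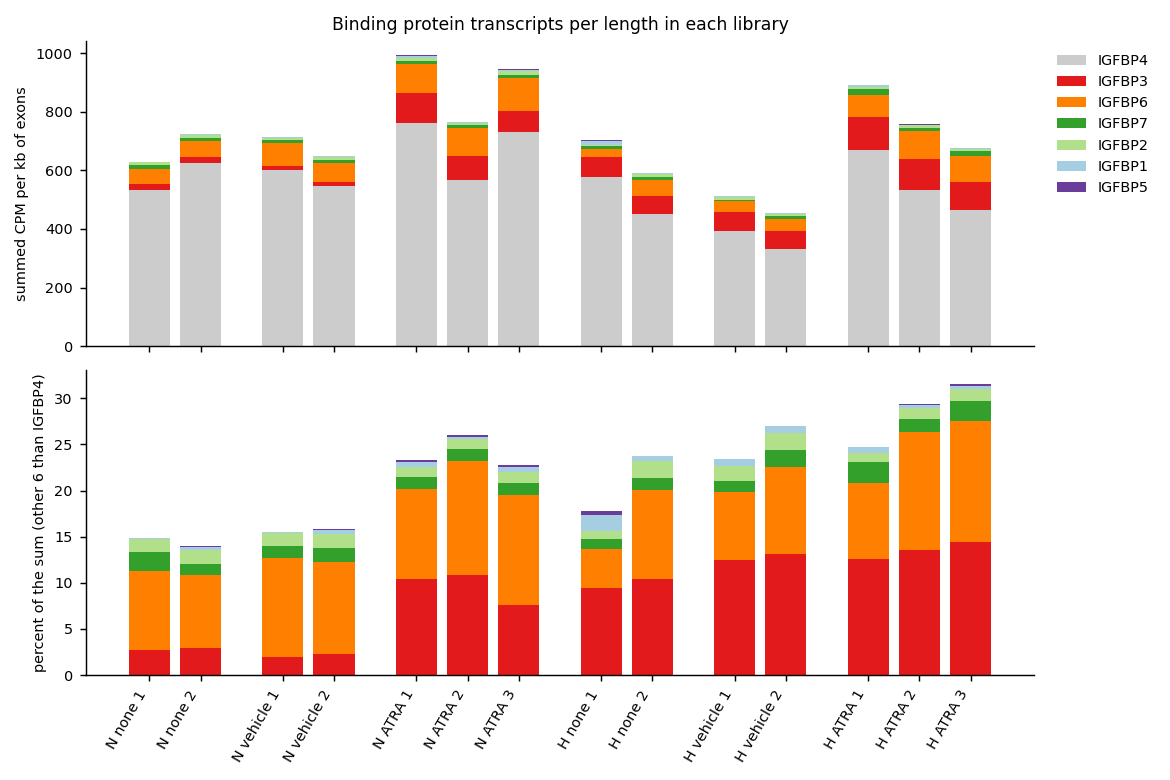
Summed CPM per kb of exons of the 7 binding protein genes in each library (upper panel) and the percent of that sum held by the 6 genes other than IGFBP4 (lower panel), by group and replicate (N normoxia, H hyperoxia). The IGFBP3 share is 1.98 to 2.89% in the 4 normoxia libraries without ATRA and 7.57 to 14.4% in the other 10.

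IGFBP3, IGFBP4, IGFBP5 and IGFBP6 each passed the test with oxygen and with ATRA, and their promoters are shown for that reason. For IGFBP4 and IGFBP6, the oxygen call and the ATRA call share the hyperoxia vehicle libraries. RefSeq promoters (GRCh38.p14) matched 7 of the 10 members, and IGF2, IGFBP1 and IGFBP7 had no entry. The 250 bases before the start are printed in the direction of transcription: IGFBP3 at chr7:45921273-45921522 (minus strand), IGFBP4 at chr17:40443200-40443449 (plus strand), IGFBP5 at chr2:216695550-216695799 (minus strand) and IGFBP6 at chr12:53097417-53097666 (plus strand). Capitals mark matches on either strand to the retinoid receptor core letters AGGTCA or GGTTCA, the GC box GGGCGG, the TATA box TATAAA, or the p53 response element consensus, searched as a single decamer. No matches overlapped in these 4 windows.
IGFBP3: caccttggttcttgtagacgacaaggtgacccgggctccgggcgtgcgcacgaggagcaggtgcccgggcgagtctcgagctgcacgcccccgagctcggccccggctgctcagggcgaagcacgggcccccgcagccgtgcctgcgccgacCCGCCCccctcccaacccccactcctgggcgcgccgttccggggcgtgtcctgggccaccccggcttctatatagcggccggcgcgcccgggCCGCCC
IGFBP4: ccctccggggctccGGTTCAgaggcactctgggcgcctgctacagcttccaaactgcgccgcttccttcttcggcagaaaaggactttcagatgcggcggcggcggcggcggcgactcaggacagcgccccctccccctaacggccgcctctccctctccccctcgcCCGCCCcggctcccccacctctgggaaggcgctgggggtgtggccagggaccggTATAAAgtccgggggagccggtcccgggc
IGFBP5: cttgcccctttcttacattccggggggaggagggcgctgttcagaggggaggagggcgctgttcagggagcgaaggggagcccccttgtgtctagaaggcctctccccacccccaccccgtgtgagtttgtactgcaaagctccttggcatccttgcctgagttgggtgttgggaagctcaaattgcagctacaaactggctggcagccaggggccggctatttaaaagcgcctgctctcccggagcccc
IGFBP6: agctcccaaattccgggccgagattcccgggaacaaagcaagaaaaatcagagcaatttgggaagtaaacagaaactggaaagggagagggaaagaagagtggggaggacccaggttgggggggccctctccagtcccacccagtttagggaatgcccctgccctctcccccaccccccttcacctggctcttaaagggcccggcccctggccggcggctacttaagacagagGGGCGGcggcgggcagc
A GC box was found 2 times before IGFBP3, and 1 time each before IGFBP4 and IGFBP6. Of all 35116 promoters, 42.6% had a GC box in the same window. IGFBP4 also had TATAAA from base -29 to -24, as 10.7% of promoters had somewhere in the window, and GGTTCA from -236 to -231 (7.16% of promoters). AGGTCA (12.1% of promoters) and the p53 consensus (5.57% of promoters) had no match in the 4 windows, and IGFBP5 had no match to any of these letters. Base composition differed as well, with 76.0% G and C for IGFBP3, 71.6% for IGFBP4, and 61.2% for both IGFBP5 and IGFBP6, against a median of 58.0% over all promoters.

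Other genes of IGF signalling were taken from a list of 53, of which 45 passed the filter on low counts. In hyperoxia with vehicle, 10 were higher (8.68% of all genes) and 4 lower (8.81% of all genes) by edgeR. With ATRA, 12 were higher (11.4%) and 4 lower (11.3%). Without vehicle, 9 were higher (7.57%) and 3 lower (7.58%), or 6 and 3 with replicate 1 left out (1733 of 16503 genes called in either direction). The lower counts were near the background. Called in the same direction in all 3 were 7 higher genes, among them PAPPA, STC2, SHC1, TSC1, GSK3B and LRP1, and 2 lower ones (PIK3CB and PIK3R2). Of all 14957 genes tested in the 3 comparisons, 4.05% were higher and 4.47% lower in each, so the 2 lower ones were near the background. With replicate 1 left out, STC2 (0.91, adjusted p = 0.0673 from edgeR) and PIK3R2 (-0.57, adjusted p = 0.264 from edgeR) were no longer called without vehicle. PAPPA encodes pappalysin, the protease that cleaves IGFBP4, and STC2 encodes stanniocalcin 2, an inhibitor of it.

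PAPPA had 313 ± 35.3 CPM (SD, n = 2) in normoxia and 729 ± 28.8 CPM (SD, n = 2) in hyperoxia with vehicle. The antisense gene PAPPA-AS1 held 42.6% as many counts, so PAPPA is uncertain. PAPPA rose by 1.22 with vehicle (standard error 0.15, adjusted p = 4.49e-06 from edgeR), by 1.41 with ATRA and by 1.43 without vehicle. STC2 rose by 1.24, 1.29 and 1.12 in the same comparisons, from 30.9 ± 0.445 to 73.2 ± 1.14 CPM (SD, n = 2 each) with vehicle. PAPPA kept its call without vehicle when replicate 1 was left out (1.37, adjusted p = 6.45e-06 from edgeR). SHC1, an adaptor of receptor tyrosine kinases, rose by 0.87 with vehicle in hyperoxia (adjusted p = 5.78e-05 from edgeR).

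Among the phosphatidylinositol 3-kinase genes, PIK3CB and PIK3R2 differed by -0.73 and -0.78 in hyperoxia with vehicle. TSC1 rose by 0.68 (adjusted p = 0.0133 from edgeR) and GSK3B by 0.82. AKT1 fell by 0.56 with vehicle (adjusted p = 0.0141 from edgeR), and LOC102723342, which overlaps it, held 40.9% as many counts. The receptor gene INSR was higher in hyperoxia with ATRA, by 0.76 (adjusted p = 0.0290 from edgeR).

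With ATRA in normoxia, edgeR called 2 of the 45, both lower (0.435% of all genes): INS-IGF2, which is the same signal as IGF2, and SHC1 (-0.54). In hyperoxia, 3 were higher (1.52% of all genes) and 2 lower (0.695% of all genes). The higher ones were CTSD, a lysosomal protease gene (0.89), IRS1, the main docking adaptor of IGF1R (0.89), and LRP1, an endocytic receptor reported to bind IGFBP3 (0.90), and the lower ones were INS-IGF2 (-1.96) and SHC1 (-0.51). LRP1 had 135 ± 3.15 CPM (SD, n = 2) with vehicle and 107 to 133 CPM with ATRA in normoxia, and 212 ± 9.64 CPM (SD, n = 2) and 396 ± 36.7 CPM (SD, n = 3) in hyperoxia. Its ATRA effect was larger in hyperoxia by 1.05 (standard error 0.18, adjusted p = 0.0145 from edgeR), the opposite sign of the IGFBP3 value.

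The genes whose log2 CPM was most like that of each member over the 14 libraries were named by Pearson's r, as a description of libraries that share their groups. For IGFBP3 they were TGM2 (0.97), CCN5 (0.95) and SMAD3 (0.95), and for IGF2R they were GLTP (0.98), CSNK1G1 (0.97) and TNFRSF10A (0.97). IGF2 was followed by INS-IGF2 (1.00), EFR3B (0.91) and PKM (0.88). IGFBP4 was followed by SREBF1 (0.93), IGFBP5 by EP400 (0.92) and IGFBP6 by MYADM, BMF and RARRES1 (0.92 each). Among the members themselves, r was 0.78 for IGFBP4 with IGFBP5 (0.80 without the library that stood apart), and 0.49 for IGFBP5 with IGFBP6 (0.87 without it). The most negative values were -0.79 for IGF1R with IGFBP2 (-0.72), -0.74 for IGF2 with IGFBP5 (-0.80) and -0.69 for IGF2 with IGFBP6 (-0.80).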

How the data were processed

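RNA-seq was done on 15 libraries of A549 cells, of which 14 were grouped by their labels. Per the submitters' processing notes and methods, reads were trimmed (Trimmomatic 0.38), aligned to hg38 (HISAT2) and assigned to gene symbols (HTSeq), and the values used are the whole-number counts the authors deposited. The library kit kept strand. How HTSeq treated strand and overlaps, and which annotation release it used, is not given in the sources used here. Entries that name no gene, 75.2% to 78.4% of each file's total, were left out.

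Tests used edgeR 4.0.16 (R 4.3.3): filterByExpr (minimum count 10, minimum total 15), TMM normalization and a quasi-likelihood test with Benjamini-Hochberg adjustment at 0.05. Vehicle and ATRA libraries were fitted together (10 libraries, 14957 genes), and comparisons of libraries without vehicle used all 14 (15339 genes). CPM values use the TMM factors of the 14 libraries. Log2 CPM used a prior count of 2. Lengths are exon unions of GENCODE 44, and positions are from RefSeq for GRCh38.p14. Standard errors were derived from the F statistic. Alternatives were DESeq2 1.42.0, RLE factors, library totals, no filter, only the groups compared, 14 libraries, treatment as a covariate, other controls, library sets (from library numbers alone) as a block and leaving out each library. Fits of 13 libraries, without the library that stood apart, were added after seeing the data.

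The script was checked on simulated libraries, where 200 genes were changed. In the comparisons among vehicle and ATRA libraries, edgeR recovered 40% to 44% of 2-fold and 73% to 76% of 4-fold changes. A gene that was not called may therefore have changed. Unchanged genes made up 4.1% to 5.65% of edgeR calls and 7.69% to 14.3% of DESeq2 calls. The 14.3% was for ATRA against vehicle in hyperoxia, where DESeq2 called IGFBP7. The members, lists, motifs and tests were chosen with earlier results of these data known. Genes named are the members, genes that overlap them, called genes of the signalling list, and the genes most like each member, and some of them are not reported here. Plots were drawn with matplotlib 3.10.9.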

Additional observations from a re-analysis of the deposited data

Results flagged for a closer look

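The effect of ATRA on IGFBP3 differed between the oxygen exposures, by a log2 difference of -1.83 (adjusted p = 1.30e-04 by edgeR, standard error 0.20), which was the interaction tested. Each of the 7 alternatives run on it kept the call, with values from -1.83 to -1.78. None of them used the libraries without vehicle as controls. Against those controls, the ATRA value of IGFBP3 was 2.17 in normoxia and 0.70 in hyperoxia (0.76 without the library that stood apart).

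The library that entered no comparison has a title naming hyperoxia and a treatment label naming adipogenic differentiation. Its level of IGF2R was 268 CPM and its level of IGFBP3 was 269 CPM, above the highest of the 4 normoxia libraries without ATRA (174 and 95.7 CPM, scaled over 15 libraries). The IGF2R value was also above the normoxia ATRA libraries (at most 186 CPM), while the IGFBP3 value was below them (at least 328 CPM). IGFBP5 had 2 counts there, and the adipocyte markers ADIPOQ, PLIN1, FABP4 and LEP had 0.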

How the results depend on the processing

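Of 1629 values of single members under an alternative, 1556 kept their side of the threshold, 32 lost the call, 38 gained it and 3 changed sign where either fit made a call. Most of these values belong to results not called in the main fit, so the total says little about how stable the calls were. For ATRA in hyperoxia, 12 alternatives were run besides leaving out each library. The call held in 7 for IGFBP4, 7 for IGFBP5, 10 for IGFBP6, 11 for IGF2 and 11 for IGFBP3. The cause was not tested for any of these shifts. The sign changes were all of IGFBP5: -0.57 for ATRA in hyperoxia against libraries without vehicle, and for oxygen without vehicle -3.48 without replicate 1 of the hyperoxia group (2.01 without replicate 2) and -2.08 in 13 libraries with treatment as a covariate.

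Members called numbered 5 for oxygen with vehicle, 2 for oxygen with ATRA, 2 for ATRA in normoxia, 5 for ATRA in hyperoxia, 1 for the difference of ATRA effects, 2 for oxygen without vehicle and 0 for vehicle at either exposure. In 14 libraries they were 1, 1 and 3 for oxygen with ATRA, ATRA in normoxia and ATRA in hyperoxia. With treatment as a covariate, a single oxygen value over all treatments stands in for oxygen with ATRA and for oxygen without vehicle, and does not measure either. It gave 4, or 5 in 13 libraries. Against libraries without vehicle, ATRA gave 1 at each exposure, and, without the library that stood apart, 4 in normoxia and 1 in hyperoxia. Against all controls together, it gave 3 in hyperoxia, and 4 in normoxia without that library. Only the groups compared gave 1 for oxygen without vehicle, and no filter 1 for vehicle in hyperoxia.

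Genes called numbered 2616 for oxygen with vehicle, and 4665 in only the groups compared, 1420 in 14 libraries, 4635 with treatment as a covariate and 5945 with that in 13. For oxygen with ATRA, 3391 became 1975 in 14 libraries, and the covariate fit of 13, whose oxygen value covers all treatments, had 5945. For ATRA in normoxia, 187 became 286 with DESeq2, 300 without a filter, 70 in 14 libraries, 67 against libraries without vehicle and 364 against all controls without the library that stood apart. For ATRA in hyperoxia, 331 became 522 without a filter, 116 in 14 libraries, 66 against libraries without vehicle (29 without the library that stood apart) and 182 against all controls. The difference of ATRA effects had 21, and 96 with DESeq2, 91 without a filter and 4 in 14 libraries. Oxygen without vehicle had 2324, and 58 in only the groups compared, 4635 with the covariate and 5945 in 13 libraries. Vehicle in normoxia had 0, and 1 with DESeq2 and 3 without a filter. Vehicle in hyperoxia had 1, and 10 with DESeq2, 89 without a filter and 0 in only the groups compared.

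With each library left out in turn, members called ranged from 4 to 5, 2 to 3, 1 to 3, 2 to 6, 1 to 1, 2 to 6, 0 to 0 and 0 to 2 in the same order. Genes called ranged from 1386 to 3175, 2715 to 3359, 56 to 267, 83 to 449, 4 to 28, 969 to 7364, 0 to 0 and 1 to 5630. A group left with 1 library is assumed to vary like the others. The counts 7364 and 5630 came without replicate 2 of hyperoxia without vehicle, which leaves the library that stood apart alone in its group. No paired analysis was possible because replicate numbers follow the order of deposit, and the block of library sets, read from library numbers alone, is not a pairing. Depth limits IGFBP5 and IGFBP1, whose groups hold down to 1 and 4 counts per library.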
